A study of Rattus norvegicus with 40 samples.

Results

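The bone morphogenetic protein (BMP) pathway was followed in rat hippocampus through 9 genes: the ligands Bmp3, Bmp4 and Bmp6, the response genes Id1, Id2, Id3 and Id4, and the inhibitory Smads Smad6 and Smad7. Each gene was taken from the probe set that carries its symbol and no other, which gave 1 probe set for each of the 9 among 29214 probe sets and 14506 named genes. The genes were chosen by measured values of 2 of them in males: the difference of Bmp3 from control after perinatal exposure to 250 ppm lead, and that of Id1 after perinatal exposure to 750 ppm. Values of all 9 genes in those comparisons are therefore given as a description, with no test.

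The study asked how lead in early life changes hippocampal gene expression, and whether dose, developmental window and sex matter. Each of 40 Affymetrix arrays held RNA from 1 hippocampal sample (100 ng total RNA), in 10 groups of 4 arrays, all from rats killed at postnatal day 55. Lead groups were males and females given chow with 250 ppm lead acetate perinatally, 750 ppm perinatally, 250 ppm postnatally or 750 ppm postnatally, and the control groups were males and females given control chow (0 ppm). Perinatal lead reached the pups through dams fed it from 10 days before breeding until weaning, postnatal lead ran from birth to postnatal day 45, and all animals ate control chow at the end. The labels name neither strain nor litters, so p-values measure the spread between these samples, and the number of arrays limits their precision.

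BMP ligands bind paired type I and type II serine/threonine kinase receptors, which phosphorylate Smad1, Smad5 and Smad9. With Smad4 these enter the nucleus and switch on target genes, among them the Id genes and, as negative feedback, Smad6 and Smad7. Id proteins lack a DNA-binding region and capture basic helix-loop-helix (bHLH) factors, and in the adult hippocampus BMP signalling restrains the division of neural stem cells.

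Several features of the whole series bear on the values. The tissue label was borne out by hippocampal neuron markers, 11 of 12 of which were brighter than at least 75.2% of probe sets (Snap25 than 99.8%), while Spink8 was brighter than 24.3%. The X-linked transcript Eif2s3 read 11.62 to 11.77 in exposed females and 11.15 to 11.42 in exposed males. By that transcript, the array labelled male control replicate 4 and the arrays labelled female control replicates 1 and 3 did not match their sex labels, so groups are called by their labels. The mean difference of all lead from all control arrays does not depend on these labels. Its SE and p do, since the spread is taken within labelled groups. A compressed range of signal was seen on 3 arrays (called flattened arrays), male 250 ppm perinatal replicates 1 and 3 and male 750 ppm perinatal replicate 1. The titles also carry sample numbers in 3 separate ranges, the lowest of which (12 arrays) holds both control groups and the females given 750 ppm perinatally. In the other 7 lead groups, number range and lead cannot be told apart.

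Promoter windows from RefSeq (build GRCr8) were listed for 8 of the 9 genes, all but Smad6. The Bmp4 window is shown because Bmp4 was the gene that passed the test over all lead groups, and the Id1 and Smad7 windows because these genes varied together from array to array. Each is the 250 bases before the listed transcript start, 5′ to 3′ on the strand of the gene. That start is not always the outer end of the gene. The Bmp4 window lies within the gene's listed span (22098191 to 22113145). The Id1 window runs past the start of its gene's span (161671525), and its E-box lies inside the span. Capitals mark GGCGCC, the GC-rich motif bound by BMP-activated Smads, or CANNTG, the E-box bound by the bHLH factors that Id proteins capture.
Bmp4, chr15:22101934-22102183, minus strand: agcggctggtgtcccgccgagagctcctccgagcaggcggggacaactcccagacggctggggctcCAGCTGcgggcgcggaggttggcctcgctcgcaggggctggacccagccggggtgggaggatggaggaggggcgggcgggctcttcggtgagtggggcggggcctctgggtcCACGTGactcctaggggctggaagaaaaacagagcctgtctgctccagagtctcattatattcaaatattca
Id1, chr3:161671314-161671563, plus strand: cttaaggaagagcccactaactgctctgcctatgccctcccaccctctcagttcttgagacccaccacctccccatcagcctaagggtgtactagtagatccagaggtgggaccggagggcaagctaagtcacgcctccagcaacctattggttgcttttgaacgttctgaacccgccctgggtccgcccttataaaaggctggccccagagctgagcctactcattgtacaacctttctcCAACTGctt
Smad7, chr18:71263258-71263507, plus strand: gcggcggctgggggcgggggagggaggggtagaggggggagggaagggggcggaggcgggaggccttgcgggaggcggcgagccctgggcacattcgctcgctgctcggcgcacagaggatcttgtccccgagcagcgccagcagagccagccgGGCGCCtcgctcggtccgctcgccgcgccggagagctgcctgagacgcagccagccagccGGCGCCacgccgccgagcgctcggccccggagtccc

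Counted from the listed transcript start, Smad7 held GGCGCC at -96 and -36, a motif found in 8.69% of 33469 windows of this length. Bmp4 held CANNTG at -184 and -72, and Id1 at -9. The Bmp3 (-123 and -15) and Id2 (-215) windows held it too, against 65.5% of all windows with at least 1 match. The short Smad element CAGAC lay in the Bmp4 window at -200 and -35, against 42.9% of all windows. No member window held the longer palindrome GTCTAGAC (0.173% of all). The cyclic AMP motifs TGACGTCA (1.59% of all) and TGACG (18.2% of all) were searched too, and TGACG was found in Bmp6 alone, at -62. Both strands were searched throughout. The windows were 54.8% GC for Id1, 66.4% for Bmp4 and 78.0% for Smad7.

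Bmp4, a ligand that activates the receptors and is known for steering precursor cells away from the oligodendrocyte fate, had higher means in all 8 lead groups than in controls. On the log2 signal scale, the values were 9.11, 9.37, 9.12 and 9.02 in males given 250 ppm perinatally, against 8.85, 8.90, 8.80 and 8.90 in male controls. The other male lead groups, set against the same controls, read 8.97, 9.23, 8.98 and 9.05 after 750 ppm perinatally, 8.93, 8.91, 9.29 and 9.26 after 250 ppm postnatally, and 9.19, 9.19, 8.90 and 9.23 after 750 ppm postnatally. All 16 male lead arrays thus lay above all 4 male control arrays, some of them only just.

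In females the Bmp4 values were 8.99, 9.14, 9.35 and 9.10 after 250 ppm perinatally, against 8.96, 8.77, 8.86 and 8.84 in female controls. After 750 ppm perinatally they were 9.30, 9.14, 8.996 and 9.13. The postnatal female groups read 9.12, 8.87, 8.95 and 8.96 at 250 ppm and 8.92, 8.99, 9.16 and 8.94 at 750 ppm. Both perinatal groups lay wholly above the female controls, and both postnatal groups overlapped them.

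Averaged over lead groups, Bmp4 was 0.23 log2 higher than in controls (SE 0.05, 1.17-fold), and this passed limma's test over all probe sets (adjusted p = 0.0288). The mean was 9.09 ± 0.14 in 32 lead arrays and 8.86 ± 0.06 in 8 control arrays (SD), and 25 of the 32 lead arrays were above the highest control. Of the 9 genes, 1 was called in this pooled comparison, where 0.38% of all probe sets were called. Without the male perinatal groups, which had served to choose genes, the difference was 0.22 (adjusted p = 0.0398 in limma), in a comparison that called 0.383% of probe sets. The females given 750 ppm perinatally, which share the title number range of the controls, were 0.28 above all controls (SE 0.08, limma unadjusted p = 0.000877, adjusted p = 0.124), a comparison that called 0.39% of probe sets and no member.

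The pooled call depended on which controls were used. Without the 3 mismatched controls the Bmp4 difference was 0.26 and limma's adjusted p was 0.0995. It was also lost when single control arrays were left out: male replicate 1 (adjusted p = 0.0615), 2 (0.0600) or 3 (0.0934), or female replicate 2 (0.0817), 3 (0.0637) or 4 (0.0770). The difference itself stayed between 0.21 and 0.25 over the 40 ways to leave out 1 array. Within single lead groups, Bmp4 differed from controls by 0.12 (SE 0.09, females, 250 ppm postnatal) to 0.29 (SE 0.09, males and females, 250 ppm perinatal). In the 6 of these comparisons that were tested, limma did not call it (adjusted p = 0.357 to 1).

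Myelin genes stood higher in the same arrays. All 9 oligodendrocyte markers had higher means in lead groups, with a median difference of 0.21 log2, against 0.00 over all probe sets. limma called 5 of them, in a comparison that called 0.38% of all probe sets: Cldn11 (0.21, SE 0.04, adjusted p = 0.00193), Mag, Mog, Cnp and Ugt8. All 5 oligodendrocyte precursor markers were higher too, with a median of 0.12, and Gpr17 (0.19, adjusted p = 0.0158) and Olig1 were called. How far these marker calls depend on which controls were used was not examined. Averaged over its genes, the oligodendrocyte list read 11.34 to 11.79 in lead arrays and 11.34 to 11.44 in control arrays, and the precursor list 9.20 to 9.44 in lead arrays and 9.05 to 9.20 in control arrays. Whether these lists carry the Bmp4 difference was not tested. In whole tissue, more cells of a type and more RNA per cell cannot be told apart, and this holds for every gene described here.

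Bmp3, an atypical ligand that opposes other BMPs in bone, had lower means in all 8 lead groups than in controls. Males given 250 ppm perinatally read 8.83, 8.996, 8.48 and 8.29, against 9.82, 9.44, 9.59 and 9.53 in male controls. All 4 lay below every control array, by -0.95 log2 on average (0.518 of control signal), the difference that led to Bmp3 being chosen. In that comparison 0.089% of probe sets were called and 2.66% did not overlap between groups. Its 2 arrays with flattened signal, replicates 1 and 3, held neither the highest nor the lowest Bmp3 value of the group, and the difference was -0.95 without them as well.

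The other male lead groups came closer to the male controls. Bmp3 read 9.07, 9.34, 9.68 and 9.44 after 750 ppm perinatally, 9.43, 9.49, 8.98 and 9.61 after 250 ppm postnatally, and 9.42, 9.58, 9.17 and 9.67 after 750 ppm postnatally. Each of these groups overlapped the male controls. Their differences were -0.21, -0.22 and -0.14 log2, each with an SE of 0.16.

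Female lead groups read 9.23, 9.16, 9.09 and 9.14 for Bmp3 after 250 ppm perinatally, against 9.64, 9.25, 9.23 and 9.54 in female controls. After 750 ppm perinatally they read 9.41, 9.29, 9.32 and 9.34. Postnatal exposure gave 9.12, 8.82, 9.36 and 9.68 at 250 ppm and 9.59, 9.08, 9.35 and 9.11 at 750 ppm. Every female lead group reached into the range of the female controls, with differences from -0.26 (250 ppm perinatal) to -0.07 (750 ppm perinatal) and SE 0.16.

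Ordered by mean, Bmp3 ran from males given 250 ppm perinatally (8.65 ± 0.32, SD, n = 4) to male controls (9.60 ± 0.16). Only the step above the lowest group was free of overlap, and the next group was females given 250 ppm perinatally (9.16 ± 0.06). All other neighbours in that order overlapped. Averaged over the 6 lead groups without male perinatal exposure, Bmp3 differed from controls by -0.20 log2 (SE 0.09, limma adjusted p = 0.481). The male control arrays in that average had also entered the comparison that chose Bmp3, so it is not free of the choice. With all 8 groups the difference was -0.27, which includes the lead arrays that chose the gene as well.

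Activity-induced genes, microglia markers and endothelial markers were also lower in the males given 250 ppm perinatally. Of 14 activity-induced genes, 14 had lower means than in male controls (median -0.36). Lower means were seen for 9 of 10 microglia markers (median -0.10) and 12 of 15 endothelial markers (median -0.14). The activity-induced and endothelial lists did not set this group apart from the other male lead groups. The activity-induced list averaged 9.05 here and 9.43 in male controls. It averaged 8.96 after 750 ppm perinatally, 9.01 after 250 ppm postnatally and 9.06 after 750 ppm postnatally. The endothelial list averaged 8.32 here, 8.24 after 750 ppm perinatally and 8.44 in male controls. The microglia list averaged 8.38 here, the lowest of the male groups, and 8.48 in male controls. After 750 ppm perinatally it averaged 8.42, after 250 ppm postnatally 8.49 and after 750 ppm postnatally 8.54. The part of these lists in the Bmp3 difference was not tested.

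Bmp6, a ligand of the same receptors known from the meninges among other sites, varied more from array to array than any other member, with an SD within groups of 0.29 log2 against 0.13 for the median probe set. Females given 750 ppm perinatally read 9.70, 9.66, 10.03 and 9.59, against 8.91, 9.37, 9.42 and 9.89 in female controls. Males given 250 ppm perinatally read 9.77, 9.39, 9.30 and 10.03, against 9.19, 8.82, 9.81 and 9.54 in male controls. The control arrays alone ran from 8.82 to 9.89, and every lead group overlapped its controls. Differences ran from -0.11 (females, 250 ppm postnatal) to 0.35 (females, 750 ppm perinatal), and over all lead groups the difference was 0.14 (SE 0.11, limma adjusted p = 0.873).

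**Figure D1:**
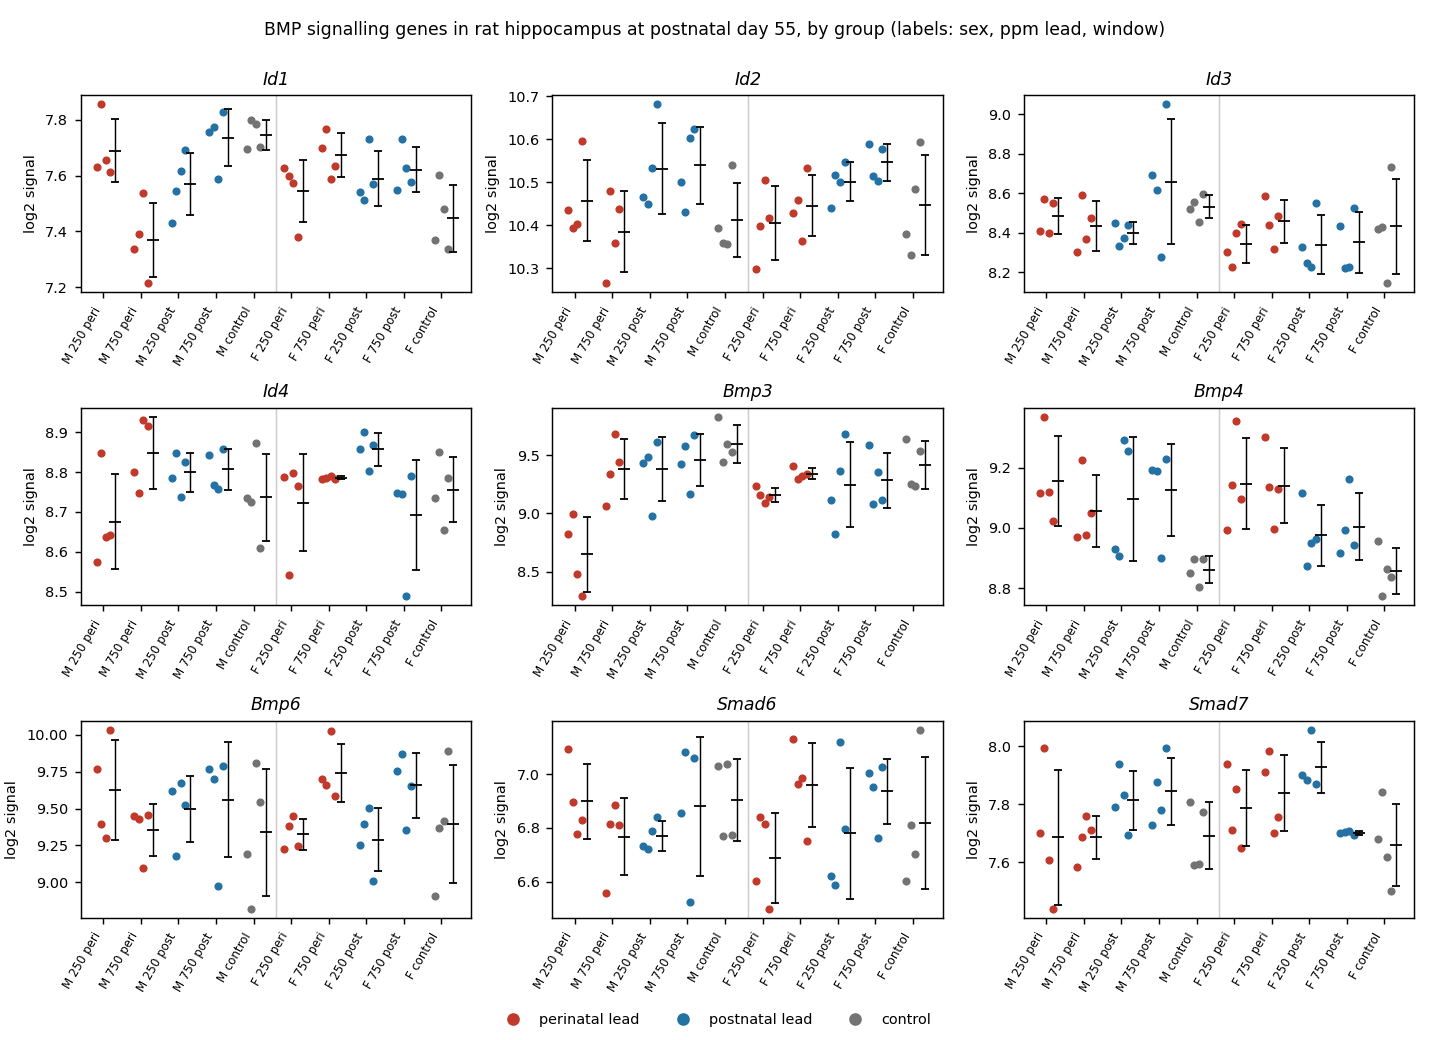
Log2 signal of the 9 genes on each of 40 arrays (points, 4 per group) with the group mean and SD (black bars, n = 4), by sex label, ppm lead and window, with lead groups left of the controls and perinatal lead in red, postnatal lead in blue and controls in grey. Bmp4 has its lowest means in the control groups of both sexes, Bmp3 lies lowest in males given 250 ppm perinatally (8.29 to 8.996), and Id1 reaches its lowest value, 7.21, in males given 750 ppm perinatally. Each panel has its own vertical scale.

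Id1 is a BMP target well known from endothelial cells. Against controls of the same sex label, its means were lower in all 4 male lead groups and higher in all 4 female ones. Males given 750 ppm perinatally read 7.34, 7.39, 7.54 and 7.21, against 7.70, 7.80, 7.78 and 7.70 in male controls. All 4 lay below every control array, by -0.38 log2 on average (0.771 of control signal), the difference that led to Id1 being chosen. In that comparison 0.0582% of probe sets were called and 3.59% did not overlap between groups.

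The other male groups read 7.63, 7.86, 7.66 and 7.61 after 250 ppm perinatally, 7.43, 7.54, 7.62 and 7.69 after 250 ppm postnatally, and 7.76, 7.77, 7.59 and 7.83 after 750 ppm postnatally. Of these, the 250 ppm postnatal group lay wholly below the male controls, in a comparison where 3.09% of probe sets did not overlap. Its difference was -0.18 (SE 0.07, limma adjusted p = 0.779). The same control arrays entered the comparison that chose the gene.

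Among females, Id1 read 7.63, 7.60, 7.57 and 7.38 after 250 ppm perinatally, against 7.37, 7.60, 7.48 and 7.34 in female controls. Exposure to 750 ppm perinatally gave 7.70, 7.77, 7.59 and 7.64. The postnatal groups gave 7.54, 7.51, 7.73 and 7.57 at 250 ppm and 7.55, 7.73, 7.63 and 7.58 at 750 ppm. All 4 female lead groups had higher means than the female controls, by 0.10 to 0.23 log2 (SE 0.07), and all overlapped them.

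The control groups themselves differed in Id1. Arrays labelled male control had the highest mean of the 10 groups (7.75 ± 0.05, SD, n = 4) and arrays labelled female control the second lowest (7.45 ± 0.12), just above males given 750 ppm perinatally (7.37 ± 0.13). The female controls were thus 0.30 log2 below the male controls, although 3 of these 8 arrays carried sex labels that their Eif2s3 signal went against. Those 3 arrays read 7.70 (labelled male replicate 4), 7.37 and 7.48 (labelled female replicates 1 and 3). The opposite signs of the Id1 differences in males and females rest on these labels, and means regrouped by Eif2s3 were not computed. All neighbours in the order of the 10 means overlapped. Over all lead groups and all controls Id1 differed by 0.00 log2 (SE 0.04).

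Endothelial markers were lower in the group with the lowest Id1 mean. In males given 750 ppm perinatally the mean of 15 endothelial markers ran from 8.08 to 8.37, against 8.43 to 8.46 in male controls, with lower means for 13 of 15 genes (median difference -0.18). Of them Cd93 was called, at 7.46 against 8.03 in male controls. Its mean was below that of the control group of the same sex label in every lead group. Female lead groups averaged 7.56 to 7.68 for Cd93, against 7.89 in female controls. Group means of the list and of Id1 did not always go together. The list averaged 8.32 both in males given 250 ppm perinatally (Id1 mean 7.69) and in female controls (Id1 mean 7.45). The part of these markers in the Id1 difference was not tested.

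Id2, Id3 and Id4, which also capture bHLH factors and mark neural progenitors and astrocytes, differed little from controls. Over all 40 arrays Id2 ran from 10.27 to 10.68, Id3 from 8.14 to 9.05 and Id4 from 8.49 to 8.93. Lead groups differed from controls by -0.04 to 0.13 log2 for Id2, by -0.13 to 0.13 for Id3 and by -0.06 to 0.11 for Id4. Id3 in males given 250 ppm postnatally (8.45, 8.34, 8.38 and 8.44) lay wholly below the male controls (8.52, 8.56, 8.46 and 8.60), by -0.13 (SE 0.11, limma adjusted p = 0.942). All other groups of these 3 genes overlapped their controls.

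Smad6 and Smad7, which block receptor-activated Smads, were not called by limma in the 6 tested lead comparisons or over all lead groups. Smad6 differed by -0.14 to 0.14 log2 and every lead group overlapped its controls. Smad7 had higher means in 6 of 8 lead groups, with differences from -0.01 to 0.27. Females given 250 ppm postnatally read 7.90, 7.88, 8.06 and 7.87, against 7.68, 7.84, 7.62 and 7.50 in female controls. This group lay wholly above its controls, in a comparison where 2.29% of probe sets did not overlap, and differed by 0.27 (SE 0.09, limma adjusted p = 0.955). Over all lead groups Smad7 was 0.11 higher (SE 0.05, adjusted p = 0.586).

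**Figure D2:**
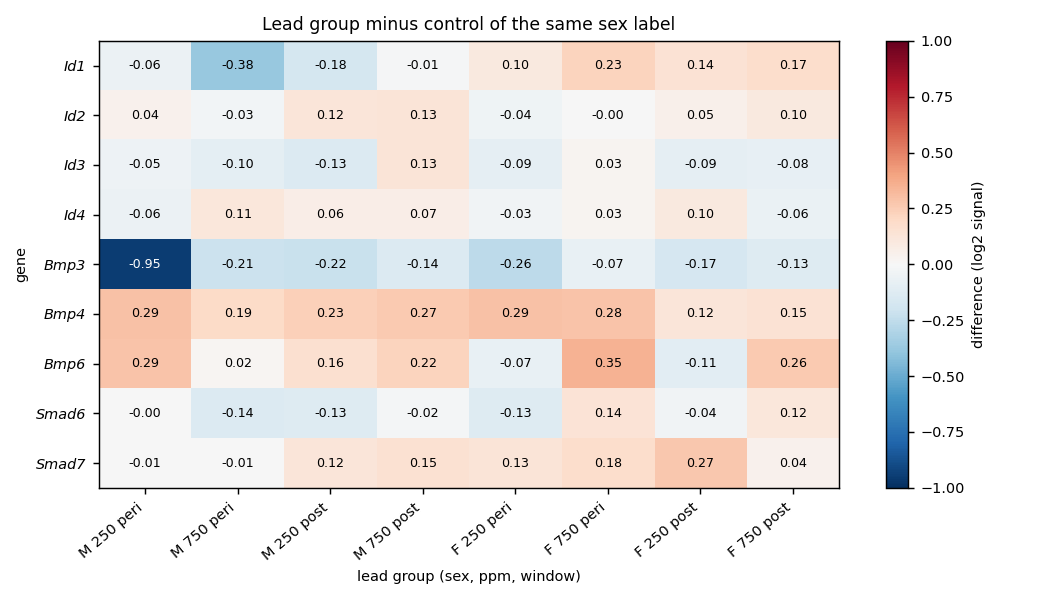
Difference in mean log2 signal between each lead group (columns, by sex label, ppm and window) and the control group of the same sex label for the 9 genes (rows), with red for higher and blue for lower in the lead group. The Bmp4 row is above 0 and the Bmp3 row below 0 in all 8 columns, each set of 4 columns sharing 1 control group, and the largest cell is Bmp3 in males given 250 ppm perinatally (-0.95).

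Set against the whole array, few of these values passed a test. In the 6 lead comparisons whose lead arrays had not served to choose genes, limma called 0 of 54 member values (smallest adjusted p = 0.357). The shares of all probe sets called there were 0.0342% and 0.0445% in males after postnatal exposure to 250 and 750 ppm, 0.0171% and 0.157% in females after perinatal exposure to 250 and 750 ppm, and 0.0171% and 0.0137% in females after postnatal exposure to 250 and 750 ppm. At an unadjusted p under 0.05 there were 9 of 54 values (16.7%), against 6.03%, 9.51%, 5.6%, 5.81%, 3.64% and 3.58% of probe sets in the same comparisons. Of the 9, 4 were Bmp4, 3 were Id1, 1 was Id2 and 1 was Smad7, and comparisons within a sex share their control arrays. The male postnatal comparisons used the male control arrays that had entered the choice of Bmp3 and Id1. For these genes they are not free of the choice. Of the 3 Id1 values, 1 came from them, in males given 250 ppm postnatally.

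Groups that did not overlap followed the same pattern. In the 6 comparisons, the genes free of overlap were Bmp4, Id1 and Id3 in males given 250 ppm postnatally (3.09% of probe sets) and Bmp4 in males given 750 ppm postnatally (5.13%). In females they were Bmp4 after 250 ppm perinatally (3.36%) and after 750 ppm perinatally (4%), and Smad7 after 250 ppm postnatally (2.29%). No member was free of overlap in females given 750 ppm postnatally (2.44%). For Id1 in males given 250 ppm postnatally, the control arrays had entered the choice of the gene. An exact permutation test of 4 against 4 arrays has 70 splits and cannot go below p = 0.0286, two-sided, the value it gave wherever groups did not overlap.

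Dose and window were compared between lead groups, with no control array. In the 5 such comparisons without male perinatal groups, limma called 0 of 45 member values (smallest adjusted p = 0.583), and 7 had an unadjusted p under 0.05. Shares of all probe sets called were 0.0103% for 750 against 250 ppm in postnatal males, 0.0856% in perinatal females and 0% in postnatal females. For postnatal against perinatal exposure of females they were 0.0103% at 250 ppm and 0.0548% at 750 ppm. In the same order, the shares at an unadjusted p under 0.05 were 3.82%, 8.02%, 3.66%, 5.98% and 5.07%. The biggest of the 7 were Bmp6 (0.42, SE 0.19) and Smad6 (0.27, SE 0.12), both higher after 750 than after 250 ppm in perinatal females, and Id3 (0.26, SE 0.11), higher after 750 than after 250 ppm in postnatal males. Free of overlap between doses were Bmp3 (0.19) and Bmp6 in perinatal females (5.34% of probe sets) and Id4 (-0.16) and Smad7 (-0.23) in postnatal females (2.24%), and between windows Id4 (0.13) in females given 250 ppm (3.49%). Females given 750 ppm perinatally lie in the lowest title number range and the other female lead groups in the middle one. Number range thus cannot be told apart from dose in perinatal females, or from window in females given 750 ppm.

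Comparisons between lead groups, or between the sexes, that reuse the male perinatal arrays behind the choice are given without a test. Bmp3 was 0.73 log2 higher in males given 750 ppm than in those given 250 ppm perinatally, and 0.73 higher in males given 250 ppm postnatally than perinatally. Id1 was 0.37 higher in males given 750 ppm postnatally than perinatally. Males given 750 ppm perinatally are the only group in the highest title number range. Number range thus cannot be told apart from dose in perinatal males, or from window in males given 750 ppm. For 750 ppm perinatally, the Id1 difference from control was 0.23 in females and -0.38 in males, which are 0.60 apart. Averaged over both sexes and doses, Id2 was 0.11 higher after postnatal than after perinatal exposure (SE 0.03). Averaged over dose and window, the widest difference between exposed females and exposed males was in Id3 (-0.12, SE 0.05).

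In the wider pathway, few genes were called. Besides the 9 genes, 64 others of the pathway were described: ligands, receptors, antagonists, Smads and their regulators, further targets and the bHLH partners of Id proteins. Over all lead groups against controls, 1 of the 12 genes on the ligand list was called, Bmp1, and it is no ligand but a metalloprotease that frees BMPs from the antagonist chordin. None of the other 11 on that list was called, in a comparison that called 0.38% of all probe sets. Bmp1 was 8.37 ± 0.06 in lead arrays and 8.23 ± 0.06 in control arrays (SD, n = 32 and n = 8), a difference of 0.14 log2 (SE 0.03, limma adjusted p = 0.0158). Of 8 bHLH partners 1 was called, Olig1, a factor of the oligodendrocyte lineage, at 10.07 ± 0.13 in lead arrays and 9.88 ± 0.07 in control arrays (difference 0.19, SE 0.04, adjusted p = 0.0365). The Bmp1 and Olig1 calls were not repeated with control arrays left out. The neuronal bHLH factors Neurod1 (-0.13, SE 0.05) and Neurod6 (-0.08, SE 0.02) had an unadjusted p under 0.05 and were not called (adjusted p = 0.384 and 0.198).

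None of the other pathway genes was called in this comparison by limma. Means were higher in lead groups for 7 of 12 receptors and co-receptors, 4 of 13 antagonists, 7 of 10 Smads and regulators and 2 of 10 targets. The medians of the 6 groups of genes lay between -0.04 and 0.02 log2, against 0.00 over all probe sets. The widest difference from controls in any lead group was that of the antagonist Sostdc1, also a choroid plexus marker, at -2.16 log2 (SE 1.18, limma adjusted p = 0.925) in females given 250 ppm perinatally. Sostdc1 varied widely among arrays of a group and was not called. The smallest p of each uncalled group over the lead comparisons belonged to the receptor Acvr1 (-0.16, SE 0.06, adjusted p = 0.434, males, 750 ppm postnatal), the antagonist Chrdl1 (0.20, SE 0.07, adjusted p = 0.993, females, 250 ppm postnatal), the ubiquitin ligase Smurf1 (0.19, SE 0.05, adjusted p = 0.423, females, 250 ppm perinatal) and the Notch target Hes1 (0.22, SE 0.07, adjusted p = 0.350, males, 750 ppm postnatal).

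Within groups, 5 of the 9 genes (Id1, Bmp4, Bmp6, Smad6 and Smad7) varied with at least 1 list of cell type markers. Each gene's deviation from its group mean was correlated with that of marker lists over the 40 arrays, 90 pairs in all, and 12 had a Benjamini-Hochberg adjusted p under 0.05 for Pearson's r (two-sided permutation test of 100000 resamples, whose smallest p is 1e-05). Signals share the array's RNA, dissection and normalization, so these are relations between samples, not between cells.

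Bmp6 followed the mean of 12 meningeal fibroblast markers closely: r = 0.93 and rho = 0.92 (permutation p = 1e-05 for r, adjusted p = 0.000150 for r and 0.000225 for rho). Without the 2 arrays farthest from the median r was 0.91, and it was 0.96 within the 12 arrays of the lowest title number range and 0.91 within the 24 of the middle range. The meningeal list read 8.13 to 9.40 in controls alone. By group, its mean in females given 750 ppm perinatally was 8.96, against 8.72 in female controls, beside the Bmp6 difference of 0.35. Bmp6 also varied with 8 mural markers (r = 0.65, rho = 0.68, permutation p = 1e-05, adjusted p = 0.000150, r = 0.57 without 2 arrays) and with neural stem cell and progenitor genes (r = 0.57, rho = 0.53, permutation p = 0.00014, adjusted p = 0.00126, r = 0.41 without 2 arrays). Within the lowest and middle title ranges these r were 0.75 and 0.69 for mural markers, and 0.69 and 0.59 for progenitor genes.

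Id1 followed the mean of 15 endothelial markers, with r = 0.74 and rho = 0.72 (permutation p = 1e-05, adjusted p = 0.000150 for r and 0.000225 for rho). Its r was 0.71 without the 2 farthest arrays, 0.56 within the lowest title range and 0.85 within the middle range. Id2, Id3 and Id4 passed with no list, and their highest r were 0.36 (microglia), 0.30 (mural) and 0.39 (microglia). For Id4 that r changed sign, at -0.18 within the lowest title range and 0.57 within the middle one. Group means were removed first, so the relation was one among arrays of the same exposure.

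Bmp4 varied with 9 oligodendrocyte markers (r = 0.64, rho = 0.60, permutation p = 2e-05, adjusted p = 0.000257, r = 0.56 without 2 arrays) and with 5 precursor markers (r = 0.60, rho = 0.55, permutation p = 9e-05, adjusted p = 0.000900, r = 0.56 without 2 arrays). Within the lowest and middle title ranges its r with the oligodendrocyte list was 0.71 and 0.62, and with the precursor list 0.61 and 0.71. With group means left in, r was 0.72 and 0.75.

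**Figure D3:**
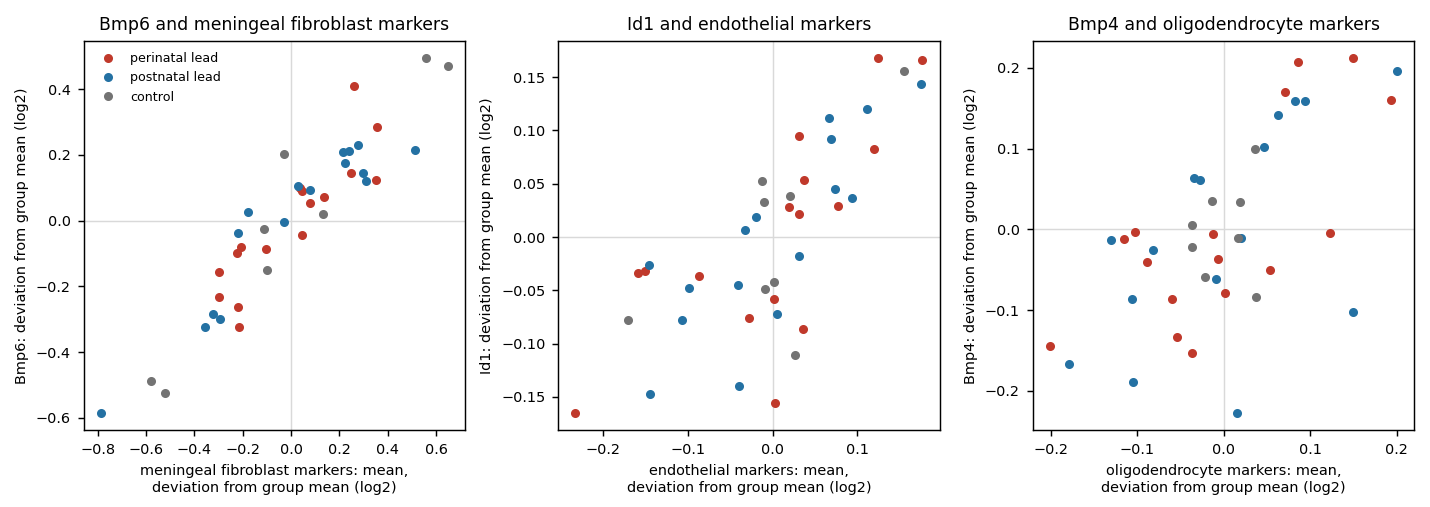
Deviation from the group mean (log2) of Bmp6, Id1 and Bmp4 against that of the mean of meningeal fibroblast, endothelial and oligodendrocyte markers; each point is 1 of 40 arrays, red for perinatal lead, blue for postnatal lead and grey for control. Points of all colours rise together, tightest for Bmp6 (r = 0.93) and more loosely for Id1 (r = 0.74) and Bmp4 (r = 0.64).

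Smad6 varied with endothelial (r = 0.66, rho = 0.66), meningeal (r = 0.68, rho = 0.62), mural (r = 0.62, rho = 0.59) and progenitor lists (r = 0.61, rho = 0.57), with permutation p of 1e-05, 1e-05, 5e-05 and 1e-05 and adjusted p of 0.000150, 0.000150, 0.000562 and 0.000150. Without the 2 farthest arrays these r were 0.61, 0.62, 0.58 and 0.50. Within the lowest title range they were 0.495, 0.74, 0.33 and 0.46, and within the middle range 0.69, 0.725, 0.73 and 0.69. Smad7 varied with endothelial markers (r = 0.48, rho = 0.46, permutation p = 0.00161, adjusted p = 0.0132) and oligodendrocyte precursor markers (r = 0.45, rho = 0.41, permutation p = 0.00351, adjusted p = 0.0263), but the second did not pass for rho (adjusted p = 0.0741). Without the 2 farthest arrays these r were 0.48 and 0.31, within the lowest title range 0.28 and 0.70, and within the middle range 0.52 and 0.33. Neither Smad7 relation passed when arrays were permuted within groups only (adjusted p = 0.0899 and 0.205), and the other 10 did. Bmp3 passed with no list (highest r = 0.38, microglia markers, permutation adjusted p = 0.0982), and that r was -0.57 within the lowest title range and 0.59 within the middle one.

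**Figure D4:**
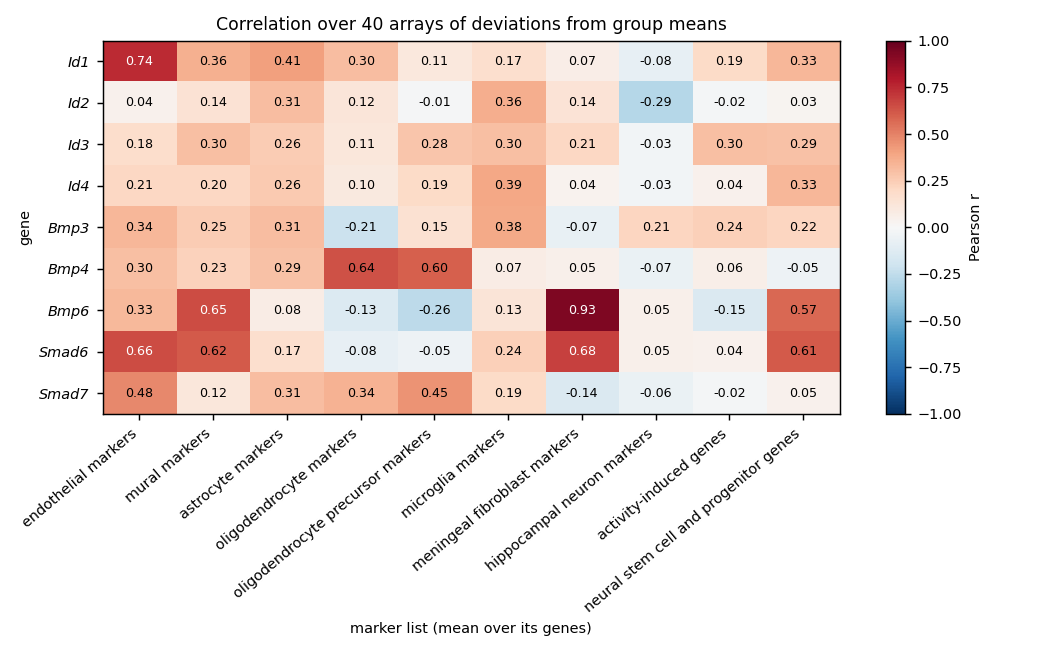
Pearson r over 40 arrays between deviations from group means of the 9 genes (rows) and of the means of 10 marker lists (columns), with red above 0 and blue below 0. The darkest cells are Bmp6 with meningeal markers (0.93) and Id1 with endothelial markers (0.74), while the rows of Id2, Id3 and Id4 stay between -0.29 and 0.39.

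Among themselves, the 9 genes formed 36 pairs, with r from -0.28 to 0.54. Of these, 2 had an adjusted p under 0.05 for both r and rho: Bmp6 with Smad6 (r = 0.54, rho = 0.50, permutation p = 0.00025, adjusted p = 0.00738 for r and 0.0404 for rho) and Id1 with Smad7 (r = 0.53, rho = 0.46, permutation p = 0.00041, adjusted p = 0.00738 and 0.0404). Without the 2 farthest arrays r was 0.45 and 0.44, and within the lowest and middle title ranges 0.64 and 0.58 for Bmp6 with Smad6, and 0.53 and 0.57 for Id1 with Smad7. With permutation inside groups only, both had an adjusted p of 0.0614. By rho alone, Bmp3 with Smad6 (r = 0.45, rho = 0.46, permutation adjusted p = 0.0512 for r and 0.0404 for rho) and Id2 with Id3 (r = 0.39, rho = 0.44, permutation adjusted p = 0.0760 and 0.0419) passed too. Without the 2 farthest arrays their r were 0.43 and 0.31, and within the lowest and middle title ranges 0.33 and 0.44 for Bmp3 with Smad6, and 0.44 and 0.29 for Id2 with Id3. The other 5 pairs of Id genes passed by neither measure.

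Over all named genes, the closest to Id1 in log2 signal across the 40 arrays were Tmem204 (r = 0.72), Magt1 (0.69), Txnip (0.66), Plat (0.64) and Abcc9 (0.64). With group means removed they were Abcb1a (0.72), the transporter of the blood-brain barrier, Fli1 (0.71), Slco1c1 (0.69), Abcc9 (0.67) and Magt1 (0.65). For Id3 the closest were Emc3 (0.73), Lamtor4 (0.72), Rpl37a (0.67), Rps29 (0.66) and Gadd45gip1 (0.66), and with group means removed Emc3 (0.80), Rps29 (0.73), Lamtor4 (0.73), Aff4 (0.73) and Dnajb12 (0.72). For Bmp3 they were Nipsnap3b (0.68), Baalc (0.66), Trem2 (0.66), Irf5 (0.65) and Samd14 (0.65), and with group means removed Nutf2 (0.68), Tom1 (0.68), Tox3 (0.68), Ak6 (0.65) and Thap11 (0.65). These are the highest of 14506 genes and carry no test.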

How the data were processed

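RNA of 40 hippocampal samples was measured on Affymetrix arrays. The deposited values were log2 signals made by the authors with RMA and Partek, per the submitters' processing notes, which give no version. They were used as deposited. Array medians lay between 6.96 and 7.06. Samples were grouped by title and characteristics.

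A limma model (limma 3.58.1, R 4.3.3) with a mean for each of 10 groups and a variance trend was fitted to all 29214 probe sets. Tests were two-sided, adjusted by Benjamini-Hochberg over all probe sets in each comparison, and called at an adjusted p under 0.05. Members and gene lists were chosen with earlier results of these data known. Relations were tested by 100000 permutations, adjusted over 36 pairs of members and 90 pairs of member and marker list. The choroid plexus list was left out there, because its arrays fell into separate clusters. The script was tested on simulated data. Promoter windows came from RefSeq (GRCr8), matched by symbol.

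The naming rule took all members, every called gene of each pathway list (up to 3 per comparison) or else the gene of smallest p, and the 5 genes closest to Id1, Id3 and Bmp3. Marker genes and genes close to other members were named after their values were seen. Alternatives were no variance trend, compared groups only, a filter on the dimmest 40%, further quantile normalization, subtracted array medians, array weights (statmod 1.5.0), and leaving out mismatched, flattened or single arrays. Figures used matplotlib 3.10.9.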

Additional observations from a re-analysis of the deposited data

Results flagged for a closer look

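Of 90 member groups of 4 arrays, 6 held an array far from the other 3 by Dixon's criterion, and chance alone gives about 1 in 20 groups. Id4 read 8.54 in replicate 2 of females given 250 ppm perinatally (others 8.77 to 8.80) and 8.49 in replicate 3 of females given 750 ppm postnatally (others 8.75 to 8.79). Replicate 3 of males given 750 ppm postnatally was low for both Bmp4 (8.90, others 9.19 to 9.23) and Bmp6 (8.98, others 9.70 to 9.79), and its mean meningeal fibroblast marker signal was 8.10, against 9.10 to 9.18 in the other 3. Bmp6 was also low in replicate 3 of males given 750 ppm perinatally (9.09, others 9.43 to 9.45). Smad7 was high in replicate 3 of females given 250 ppm postnatally (8.06, others 7.87 to 7.90).

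The Id1 difference from control after 750 ppm perinatally was 0.60 log2 higher in females than in males. The male arrays in it had served to choose Id1, so this is a description, with no test. The control groups themselves differed by -0.30 (female minus male).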

How the results depend on the processing

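Counts of members past the threshold changed under some settings. Those for Bmp3 and Id1 below come from arrays that chose these genes, so they describe the settings and test nothing. For males given 250 ppm perinatally the count was 1 (Bmp3) and became 0 with compared groups only and without flattened arrays, where the Bmp3 difference stayed at -0.95, and the count of all probe sets, 26, was 7 and 5. For males given 750 ppm perinatally it was 1 (Id1) and became 0 with compared groups only, array weights, and without mismatched controls or flattened arrays; leaving out 1 array gave 0 to 1, at 0 in 7 of 8 cases, and differences of -0.43 to -0.32. The count of all probe sets there, 17, was 2, 10, 5 and 0 under the first 4 settings and 4 to 22 over single arrays. For all lead against all control arrays it was 1 (Bmp4) and became 0 without mismatched controls and within the lowest title number range; leaving out 1 array gave 0 to 1. There the count of all probe sets, 111, was 38 without mismatched controls and 43 to 125 over single arrays. For 750 against 250 ppm in perinatal males it was 0 and became 1 (Bmp3) with the dimmest 40% left out or further quantile normalization, and was 0 to 1 over single arrays. For postnatal against perinatal males at 750 ppm it was 1 (Id1), 0 without flattened arrays and 0 to 1 over single arrays. For the sex interaction at 750 ppm perinatally it was 1 (Id1), 0 without mismatched controls and 0 to 1 over single arrays. The 2 pair relations became 1 with group means left in, 0 without the 2 farthest arrays and 0 with permutation within groups. The cause of these changes was not tested. No difference or relation past its threshold changed sign. Relations short of it did within the lowest title range, among them microglia markers with Bmp3 (-0.57) and Id4 (-0.18). The r of Smad6 with mural markers moved to 0.33 and that of Smad7 with precursor markers to 0.70 within the lowest title range, a setting added after seeing the data. Averaging several probe sets was not run, since each member has 1. No paired analysis was possible because title numbers are unique to each array, and replicate numbers only follow accession order. With 4 arrays in a group, precision was limited, and differences near a gene's SE were not detectable.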
